A study of Mus musculus with 6 samples.

Results

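The chemokine ligands of the mouse were followed in cultured fibroblasts from heart and from tail. The list held 30 genes, 18 of the CC class, 11 of the CXC class and Cx3cl1, and its members were found as the array probes whose RefSeq accession belongs to 1 of those symbols. Of the 30 genes, 29 had a named probe (34 probes in all), among 20676 gene symbols on the array, and no probe was named for Cxcl11, which the RefSeq table lists as a transcribed pseudogene in its mouse assembly. The cultures came from male C57/Bl6-J mice of 8 weeks in the sample labels (8 to 10 weeks in the protocol), with no transgene or treatment given. Hearts were chopped and whole tails skinned and cut up, both were digested with trypsin or collagenase for 40 minutes, and the cells that attached were grown for 5 days in serum-containing medium. Each of the 3 heart and 3 tail cultures was pooled from 2 animals, and the sources used here do not say if a heart and a tail culture came from the same mice. No sorting step is given, so each array reads all cells in the dish, and fewer cells of a type and less RNA per cell cannot be told apart.

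Chemokines are small secreted proteins that direct the movement of leukocytes through G-protein-coupled receptors on those cells. They are named by the spacing of their first conserved cysteines (CC, CXC, CX3C), and many are induced in fibroblasts, endothelial cells and macrophages by inflammatory cytokines through NF-kappaB or by interferons, while a few, such as Cxcl12, are produced constitutively by stromal cells. In the injured heart, monocyte- and neutrophil-attracting chemokines are known for the early recruitment of those cells, and fibroblasts are among their sources.

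Levels are given as log2 of the processed signal with each array's 75th percentile set to 0, and they compare arrays for 1 probe, never 1 gene with another. On the array labelled heart 2, 99.3% of spots were well above background against 47.3% to 55.2% on the others. Its signals correlated with the others at 0.742 to 0.764 across probes, where other pairs reached 0.957 to 0.988. Its median signal was 949.41 and its 75th percentile 2320.72, against 24.29 to 37.8 and 385.29 to 613.19 on the others. Its median thus lay nearer to the 75th percentile, so its scaled levels are squeezed and its place beside heart or tail is uncertain. The arrays labelled tail 1 and heart 2 went against their labels in tissue genes. On tail 1 the level of Tcf21, a transcription factor of epicardium and cardiac fibroblasts, was 5.44, against 5.37 and 5.28 on heart 1 and 3 and -5.45 and -5.64 on tail 2 and 3. Heart 2 lay on the tail side, with a Tcf21 level of -2.38. Whether samples were exchanged was not tested. The comparison by label therefore stands beside a comparison of heart 1 and 3 with tail 2 and 3 (n = 2 per group). The 4 arrays were chosen with earlier results of these data known, and tail 1 was left out on the outcome itself, so p-values on 4 arrays are too small to an extent that is not known. Every array kept its label.

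By label, none of 20 tested chemokine ligands passed the test (limma, Benjamini-Hochberg adjusted p under 0.05 over all features), and 0 of 20197 features passed (0%). At an unadjusted p under 0.05 there was 1 ligand, Ccl11 (log2 difference 1.69, SE 0.68, adjusted p = 0.714), against 445 features (2.2%). The ligands' median heart-minus-tail difference was 0.06, against -0.40 over all features, with 10 of the 20 above 0. On the 4 arrays, 11 of 21 tested ligands passed, against 14.4% of all 20567 features. Of the 11, 9 were higher in heart (7.75% of all features were) and 2 were lower (6.63% of all features were). The median difference of the 21 was 1.08, against -0.07 over all features, and the range ran from -4.36 for Cxcl9 to 4.28 for Ccl6. Higher in heart were Ccl6, Ccl17, Ccl12, Ccl9, Cxcl5, Ccl19, Cxcl1, Cxcl16 and Ccl25, and higher in tail were Cxcl14 and Cxcl9. Cxcl9 passed the filter on dim probes only through tail, and Ccl11 and Ccl17 only through heart. Both heart arrays lay above both tail arrays for each of the 9, and below both for the other 2. The arrays sat in 2 rows of the slide, heart 1 and tail 2 in the first and heart 3 and tail 3 in the second. Those directions hold within each row too, which follows from the separation just given. With the row as a block 13 ligands passed, Ccl8 and Ccl11 being added, against 2929 of all 20567 features.

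**Figure D1:**
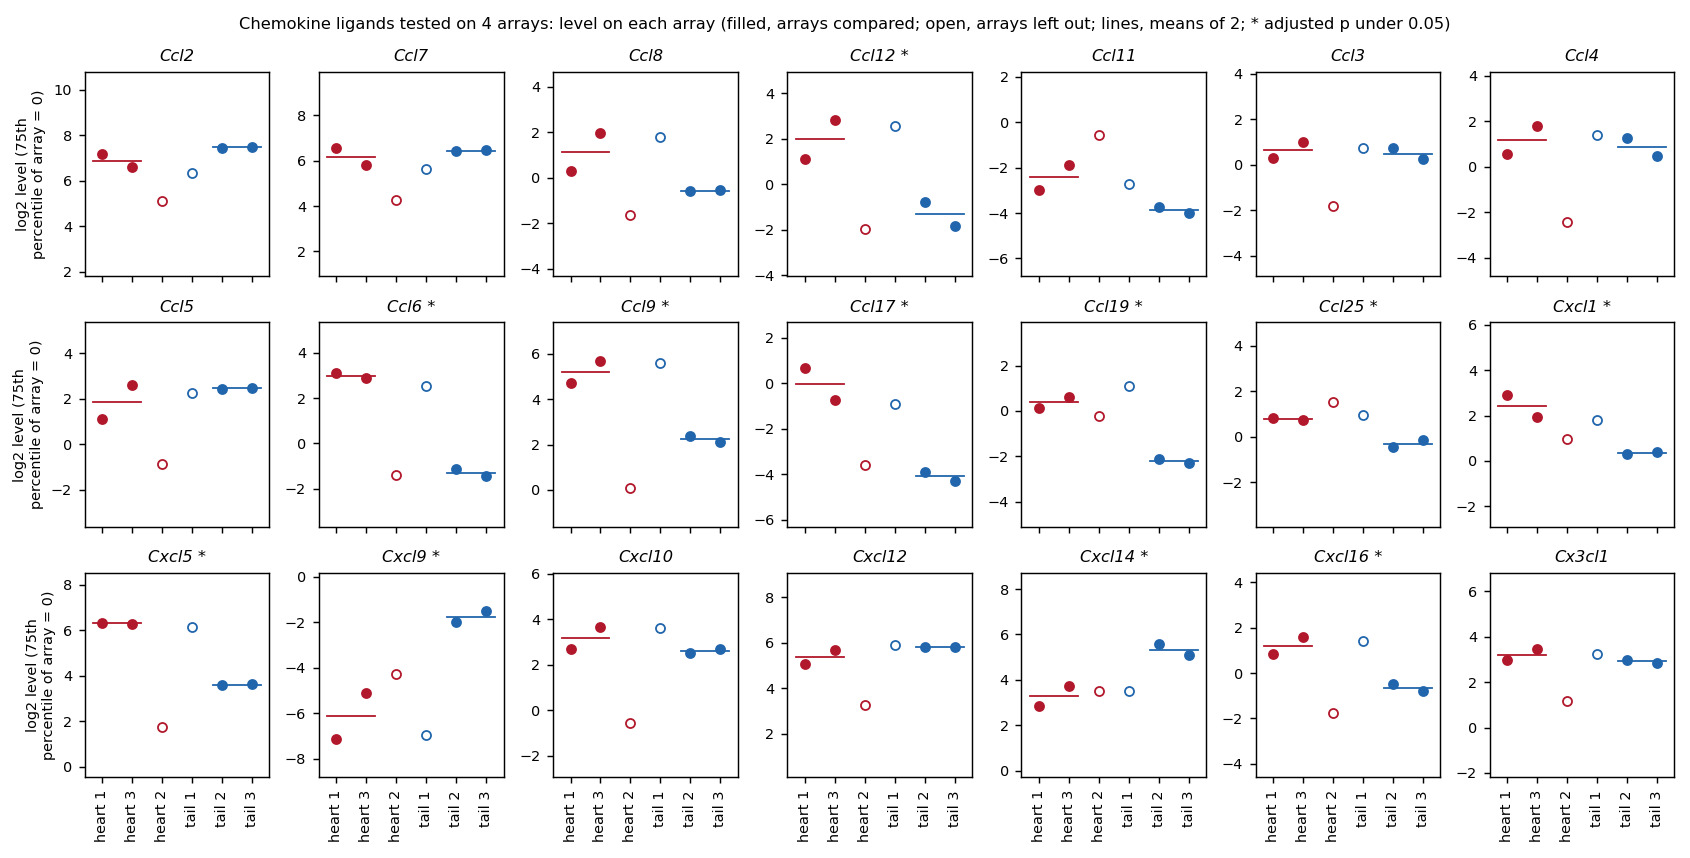
Log2 level (75th percentile of the array = 0) of each of the 21 chemokine ligands tested on 4 arrays, 1 panel per gene with its own axis position and 1 point per array; red is heart, blue is tail, filled points are the arrays compared, open points are the 2 arrays left out, lines are means of 2 arrays and an asterisk marks an adjusted p under 0.05. The open tail 1 point lies nearer to the heart mean in all 11 genes with an asterisk, and the open heart 2 point lies nearer to the tail mean in 7 of them.

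The arrays left out did not enter the 4-array test, but tail 1 was left out because it lay with heart in tissue genes, so its place is a description. Tail 1 lay nearer to the heart mean for all 11, and nearer to it for 19 of the 21 tested ligands, with Ccl5 and Cxcl12 as the other two. Heart 2 lay nearer to the tail mean for 7 of the 11, namely Ccl6, Ccl9, Ccl12, Ccl17, Cxcl1, Cxcl5 and Cxcl16, and nearer to the heart mean for Ccl19, Ccl25, Cxcl9 and Cxcl14. With the squeezed scale of heart 2 given above, these places are uncertain. By label, with these arrays in, the differences of the 9 ligands higher in heart on 4 arrays shrank to between 0.12 (Ccl9) and 1.81 (Ccl17, SE 1.23).

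**Figure D2:**
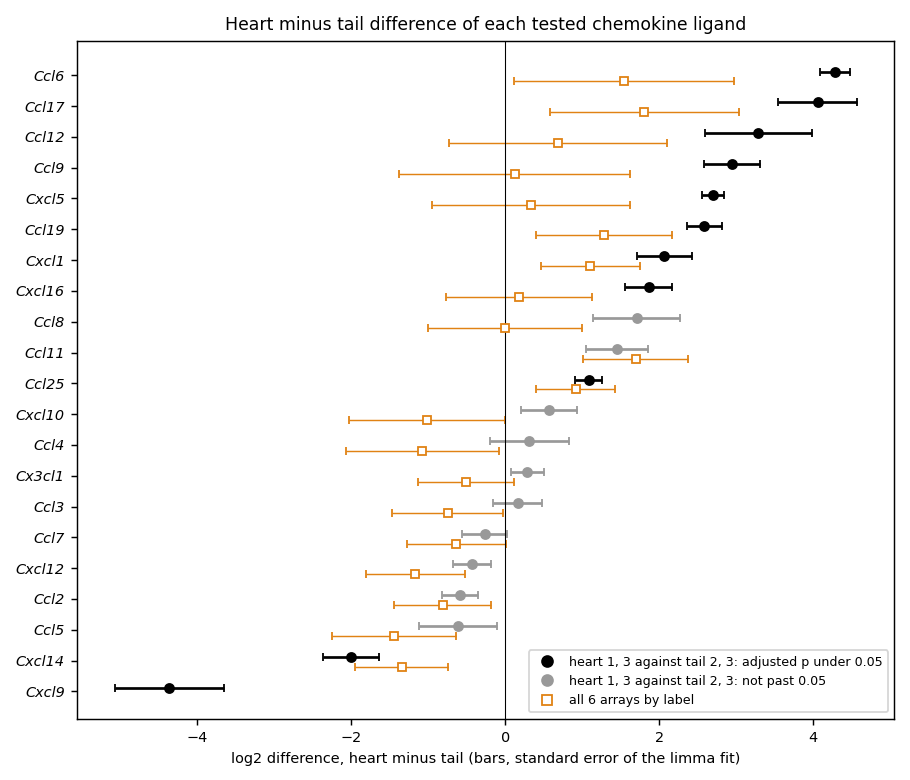
Heart-minus-tail log2 difference of each tested chemokine ligand, with bars of 1 standard error of the limma fit; filled circles are the 4-array comparison (black where the adjusted p is under 0.05) and open orange squares the comparison by label, which did not test Cxcl9. The 4-array differences run from -4.36 to 4.28 and those by label from -1.44 to 1.81, with wider bars by label.

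The monocyte-attracting CC ligands of chromosome 11 differed in what they showed. These genes, Ccl2, Ccl7, Ccl12 and Ccl8, act mainly through Ccr2 (Ccl8 of the mouse through Ccr8) and stand together in the gene order, with Ccl11 between Ccl7 and Ccl12. Of the 4, Ccl12 rose in heart on the 4 arrays and the other 3 did not pass. Ccl12 read 1.11 and 2.84 on heart 1 and 3 and -0.77 and -1.86 on tail 2 and 3. The difference was 3.29 (SE 0.70, adjusted p = 0.0478), or 9.76-fold higher in heart. The heart mean was 1.97 ± 1.23 (SD, n = 2) and the tail mean -1.31 ± 0.77. The heart arrays differed from each other by more than the tail arrays did, and both were above tail. Tail 1 read 2.55 and heart 2 read -1.95. The call of Ccl12 was lost with quantile normalization (adjusted p = 0.0543), without a filter on dim probes (0.21), without heart 3 (0.0908), without tail 2 (0.0538) and without tail 3 (0.11).

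Ccl2, the main monocyte attractant (MCP-1), was well above background on every array. It read 7.16 and 6.59 on heart 1 and 3, 7.45 and 7.48 on tail 2 and 3, 5.10 on heart 2 and 6.36 on tail 1. Both tail arrays compared were the higher ones, by a difference of -0.59 (95% interval -1.21 to 0.03, adjusted p = 0.189). Without heart 1 the adjusted p of Ccl2 was 0.0335, with tail higher. Its neighbour Ccl7 (MCP-3) read 6.56 and 5.79 in heart, 6.42 and 6.47 in tail, 4.26 on heart 2 and 5.62 on tail 1, and the groups overlapped. The difference was -0.27 (95% interval -1.04 to 0.50, adjusted p = 0.585). Ccl8 (MCP-2) went the way of Ccl12 without passing. It read 0.31 and 1.96 in heart, -0.59 and -0.55 in tail, -1.64 on heart 2 and 1.79 on tail 1. Both heart arrays were above both tail arrays, by 1.71 (95% interval 0.21 to 3.21, adjusted p = 0.136), and the adjusted p was 0.0086 without heart 1, 0.047 without heart 3, 0.0363 with scaling to the array median and 0.0333 with the row of the slide as a block.

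Ccl11 (eotaxin-1), an eosinophil attractant read by Ccr3, was dim. It read -2.97 and -1.87 in heart, -3.73 and -4.01 in tail (1 of the 2 arrays well above background), -0.56 on heart 2 and -2.74 on tail 1. Both heart arrays were above both tail arrays, by 1.45 (SE 0.40, adjusted p = 0.0926), and heart 2, with its squeezed scale, was the highest of the 6. Ccl11 passed with median scaling (adjusted p = 0.0242), with the row of the slide as a block (0.0434) and without heart 1 (0.018). With normexp background correction the difference was 0.55. Ccl24 (eotaxin-2), which shares Ccr3, was not tested. Its signal was well above background on tail 2 and heart 2 and on no other array. It read -3.76 and -3.67 on tail 2 and 3 and -6.22 and -6.05 on heart 1 and 3. The authors' deposited table lists the Ccl24 probe with a log2 fold of -2.65, higher in tail. Without a filter the difference was -2.42 (adjusted p = 0.0366).

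The macrophage-type CC ligands of the neighbouring cluster on chromosome 11 fell into a pair that rose in heart and a trio that did not pass. In the gene order Ccl5 is followed by Ccl9, Ccl6, Ccl3 and Ccl4. Ccl6 and Ccl9, rodent chemokines made largely by myeloid cells and read by Ccr1, were the pair. Ccl6 read 3.11 and 2.87 in heart and -1.13 and -1.45 in tail. The difference was 4.28 (SE 0.19, adjusted p = 0.00116), or 19.5-fold, with a heart mean of 2.99 ± 0.17 (SD, n = 2) and a tail mean of -1.29 ± 0.22. Ccl6 was low on tail 2, tail 3 and heart 2 (-1.40), and high on the other arrays, tail 1 (2.55) among them. The 4-array call of Ccl6 held under every 4-array alternative run. By label its difference was 1.54 (SE 1.43, adjusted p = 0.714). Ccl9 was likewise low on tail 2, tail 3 and heart 2, with 4.69 and 5.67 in heart, 2.36 and 2.11 in tail, 0.09 on heart 2 and 5.60 on tail 1. The difference was 2.94 (SE 0.36, adjusted p = 0.011), or 7.67-fold. Among the 4-array alternatives the call of Ccl9 was lost only without a filter (adjusted p = 0.0842).

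Ccl3, Ccl4 and Ccl5, attractants of monocytes and T cells, overlapped between the groups. Ccl3 read 0.30 and 1.00 in heart, 0.74 and 0.24 in tail, -1.83 on heart 2 and 0.74 on tail 1, with a difference of 0.16 (95% interval -0.68 to 1.01). Ccl4 read 0.55 and 1.79 in heart, 1.28 and 0.45 in tail, -2.45 on heart 2 and 1.40 on tail 1, with a difference of 0.31 (95% interval -1.05 to 1.67). Ccl5 read 1.12 and 2.59 in heart, 2.45 and 2.49 in tail, -0.86 on heart 2 and 2.25 on tail 1. In Ccl5 heart 1 alone was low among the 4 arrays, and the difference was -0.62 (95% interval -1.96 to 0.73, adjusted p = 0.474). Without heart 3 the adjusted p of Ccl5 was 0.0293, with tail higher. The adjusted p was 0.767 for Ccl3 and 0.725 for Ccl4, and the sign of both turned without heart 3 or tail 3.

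Promoter sequences of Ccl12 and Ccl9 are shown because these genes rose in heart beside neighbours that did not pass. They are the 250 bases before the start in RefSeq's table for GRCm38.p6 (chr11:82101595-82101844, plus strand for Ccl12; chr11:83578637-83578886, minus strand for Ccl9), printed 5′ to 3′ along the gene. Capitals mark letters that match a motif on either strand, and overlapping matches run together. The motif called NF-kappaB-like was GGGNNNTTC, and the motif called ISRE-like, after the interferon-stimulated response element, was GAAANNGAA. The AP-1-like motif was TGANTCA. The motif of the core promoter was TATAAA, named TATA here.
Ccl12: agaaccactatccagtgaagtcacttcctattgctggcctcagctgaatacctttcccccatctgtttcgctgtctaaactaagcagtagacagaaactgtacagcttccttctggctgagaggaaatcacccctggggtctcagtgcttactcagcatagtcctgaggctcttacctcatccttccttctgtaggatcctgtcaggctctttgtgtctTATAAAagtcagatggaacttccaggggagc
Ccl9: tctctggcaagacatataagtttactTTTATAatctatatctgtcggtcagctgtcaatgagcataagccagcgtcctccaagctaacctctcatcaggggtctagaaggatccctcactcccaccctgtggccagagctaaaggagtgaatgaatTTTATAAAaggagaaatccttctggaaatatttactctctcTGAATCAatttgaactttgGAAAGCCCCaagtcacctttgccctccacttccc
Ccl12 holds a TATA match 31 bases before the start and no match to the other motifs in this window. Ccl9 holds an NF-kappaB-like match 34 bases before the start, an AP-1-like match 53 bases before it and 3 TATA matches. The TATA matches lie 224, 94 and 92 bases before the start, those at 224 and 94 on the opposite strand to the gene.

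Over all 32851 windows of this length in the table, 11.82% hold an NF-kappaB-like match, 7.13% an ISRE-like match, 6.75% an AP-1-like match and 12.37% a TATA match. The table gave 22 windows for 21 ligands. None was given for Ccl2, Ccl4, Ccl5, Ccl7 and Ccl11, so these neighbours cannot be set beside Ccl12 and Ccl9. Ccl24, Cxcl5, Cxcl11 and Cxcl16 had none either. Ccl8, which follows Ccl12 in the gene order and did not pass, holds a TATA match 32 bases before the start. Ccl3, which did not pass, holds an ISRE-like match 39 bases before the start. The windows of Ccl6 and Ccl17, which also rose in heart, held no match and are not shown. Of the 21, 7 held an NF-kappaB-like match (Ccl1, Ccl9, Ccl20, Cxcl1, Cxcl2, Cxcl9 and Cxcl10) and 6 an ISRE-like match (Ccl1, Ccl3, Ccl19, Cxcl9, Cxcl10 and Cxcl14). An AP-1-like match was in 2 (Ccl9 and Cxcl10). A TATA match was in 8 (Ccl8, Ccl9, Ccl12, Ccl25, Cxcl9, Cxcl13, Cxcl15 and Cx3cl1). Of the 7 ligands with an NF-kappaB-like match, Ccl9 and Cxcl1 rose in heart, Cxcl9 was higher in tail, Cxcl10 did not pass and Ccl1, Ccl20 and Cxcl2 were not tested. The NF-kappaB-like and ISRE-like motifs were shortened after matches of longer forms had been seen, so their counts beside all windows are a description and not a test. A match is a match of letters and was not tested as a binding site.

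Among ligands of T cells and dendritic cells, both tested genes rose in heart, and Ccl1, Ccl20 and Ccl22 were not tested. Ccl17 (TARC), a ligand of Ccr4 made by dendritic cells, read 0.68 and -0.75 in heart and -3.88 and -4.30 in tail, where it was well above background on 1 of the 2 arrays. The difference was 4.06 (SE 0.51, adjusted p = 0.0119), or 16.6-fold. Ccl17 passed the filter only through heart, so the filter favoured this direction. Tail 1 (-0.91) was with heart 3, and heart 2 (-3.60) was near tail. With normexp background correction the difference of Ccl17 was 2.39. Among the 4-array alternatives its call was lost only without a filter (adjusted p = 0.0849). It was not tested under the filter that needs signal on all 4 arrays. In the gene order of chromosome 8, Ccl17 follows Cx3cl1, and Ccl22, the other Ccr4 ligand, comes before Cx3cl1. Ccl22 was well above background on heart 2 only.

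Ccl19, which draws T cells and mature dendritic cells through Ccr7, was read by 3 probes that rose in heart by different amounts. The probe standing for the gene read 0.12 and 0.63 in heart, -2.13 and -2.29 in tail, -0.24 on heart 2 and 1.09 on tail 1, a difference of 2.58 (SE 0.23, adjusted p = 0.00451). Probe A_55_P2127995 read -0.26 and 0.21 in heart and -2.43 and -2.79 in tail, a difference of 2.59. Probe A_55_P2099742 read 0.69 and 1.20 in heart and -5.79 and -4.64 in tail, where it was not well above background, and heart was at least 36.8-fold higher (difference 6.16, SE 0.44, adjusted p = 0.00283 over all probes). The authors' deposited table lists this probe alone of the 3, with a log2 fold of 6.20, or 73.5-fold. All 3 probes carry the same accession, and Ccl19 has near-identical copies in the mouse genome. Which copies each probe reads was not tested, so the size for Ccl19 is uncertain. The call of Ccl19 itself was lost only without a filter (adjusted p = 0.0517).

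**Figure D3:**
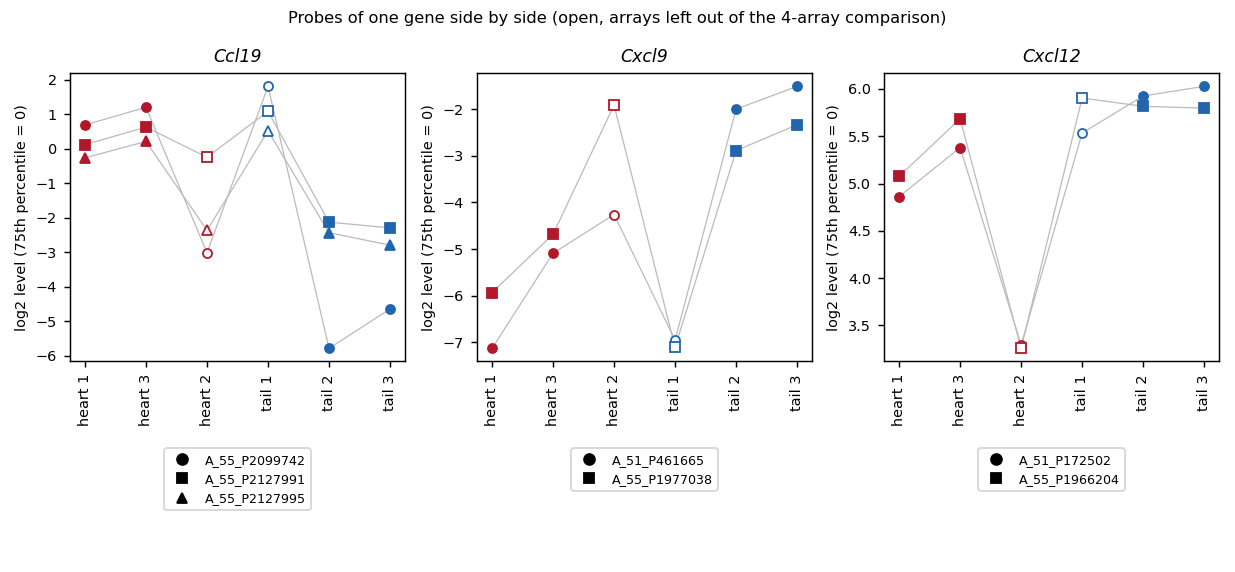
Log2 level (75th percentile of the array = 0) on each array for the separate probes of Ccl19, Cxcl9 and Cxcl12; red is heart, blue is tail, open points are the arrays left out of the 4-array comparison, and grey lines join the points of a probe. The Ccl19 probes lie close together in heart 1 and 3 and far apart in tail 2 and 3, where A_55_P2099742 is at -5.79 and -4.64 and the others lie between -2.13 and -2.79.

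Ccl25 (TECK), the Ccr9 ligand of thymus and gut, rose in heart by the smallest amount of the 11. It read 0.82 and 0.74 in heart, -0.46 and -0.14 in tail, 1.52 on heart 2 and 0.95 on tail 1. The difference was 1.08 (SE 0.18, adjusted p = 0.0239), or 2.12-fold, and all arrays but tail 2 and 3 were high. The call was lost without any 1 of the 4 arrays (adjusted p from 0.0594 to 0.207) and without a filter (0.173). Another Ccl25 probe was well above background on heart 2 only.

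The neutrophil-attracting CXC ligands that were tested both rose in heart. Cxcl1 (KC) and Cxcl5 (LIX) signal through Cxcr2. Cxcl5 read 6.33 and 6.30 in heart and 3.60 and 3.63 in tail. The difference was 2.70 (SE 0.14, adjusted p = 0.00143), or 6.5-fold, with a heart mean of 6.31 ± 0.02 (SD, n = 2) and a tail mean of 3.61 ± 0.02, and the replicates of each group lay close together. Tail 1 read 6.13 and heart 2 read 1.74, below every other array. The 4-array call of Cxcl5 held under every 4-array alternative run. By label its difference was 0.33 (SE 1.29, adjusted p = 0.898), and -0.60 with median scaling. The authors' deposited table lists the Cxcl5 probe with a log2 fold of 2.68. Cxcl1 read 2.90 and 1.93 in heart, 0.30 and 0.40 in tail, 0.98 on heart 2 and 1.81 on tail 1. The difference was 2.07 (SE 0.36, adjusted p = 0.0275), or 4.19-fold. Its call was lost without tail 2 (adjusted p = 0.0988), without tail 3 (0.0744) and without a filter (0.155).

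In the gene order of chromosome 5, Cxcl1 stands between Cxcl15 and Cxcl2, neither of which was tested. Cxcl2 (MIP-2) was well above background on heart 1 (-4.63) and heart 2 (-2.37) and read between -5.40 and -6.56 elsewhere. Cxcl15 (lungkine) was well above background on heart 3 (-3.22) and heart 2 (-2.20) and read between -6.08 and -7.35 elsewhere. Of the 2 heart arrays compared, each gene passed background on 1, not the same one. Cxcl1, Cxcl2 and the unlisted Cxcl3 are close in sequence, and cross-reading among their probes was not tested. Among the ligands that rose, no promoter window was given for Cxcl5 and Cxcl16. Of the windows given for the others, that of Cxcl1 (chr5:90890995-90891244, plus strand) held the most NF-kappaB-like matches and is shown.
Cxcl1: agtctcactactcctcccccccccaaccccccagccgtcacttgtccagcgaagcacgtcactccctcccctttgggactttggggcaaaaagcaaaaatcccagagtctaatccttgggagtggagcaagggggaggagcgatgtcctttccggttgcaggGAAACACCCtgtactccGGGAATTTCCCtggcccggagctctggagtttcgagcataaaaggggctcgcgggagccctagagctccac
Capitals are as above. The window holds NF-kappaB-like matches on both strands at 71 and 69 bases before the start, which overlap, and another 88 bases before it.

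The Cxcr3 ligands, which draw activated T cells and are classical interferon-gamma targets, did not move together. Cxcl9 (MIG) was higher in tail and Cxcl10 (IP-10) did not pass. Cxcl9 read -2.00 and -1.51 in tail and -7.13 and -5.09 in heart, where it was not well above background, and the level in tail was at least 6.67-fold that in heart (difference -4.36, SE 0.71, adjusted p = 0.024). Since it passed the filter through tail alone, the filter fixed that direction. Tail 1, at -6.95, lay with heart 1, and heart 2 read -4.26. The other Cxcl9 probe gave at least 3.68-fold (difference -2.70), and with normexp the difference was -1.58. When 1 tail array was left out that other probe stood for the gene and did not pass (-2.98, adjusted p = 0.0533, without tail 2, and -2.42, adjusted p = 0.0785, without tail 3). Without a filter the call was lost (adjusted p = 0.133).

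Cxcl10 read 2.67 and 3.66 in heart, 2.50 and 2.69 in tail, -0.58 on heart 2 and 3.63 on tail 1. Heart 1 lay between the tail arrays, and the difference was 0.57 (95% interval -0.39 to 1.54, adjusted p = 0.361). Without heart 1 its adjusted p was 0.0364, with heart higher. The promoters of the pair, which lie near each other on chromosome 5 with Art3 between them, are shown because Cxcl9 was called and Cxcl10 was not (chr5:92328080-92328329, minus strand for Cxcl9; chr5:92348890-92349139, minus strand for Cxcl10). Capitals are as above.
Cxcl9: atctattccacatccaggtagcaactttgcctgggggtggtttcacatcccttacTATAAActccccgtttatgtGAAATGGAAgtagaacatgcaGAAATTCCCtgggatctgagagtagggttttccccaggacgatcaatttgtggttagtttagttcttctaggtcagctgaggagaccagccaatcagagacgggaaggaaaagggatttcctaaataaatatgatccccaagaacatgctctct
Cxcl10: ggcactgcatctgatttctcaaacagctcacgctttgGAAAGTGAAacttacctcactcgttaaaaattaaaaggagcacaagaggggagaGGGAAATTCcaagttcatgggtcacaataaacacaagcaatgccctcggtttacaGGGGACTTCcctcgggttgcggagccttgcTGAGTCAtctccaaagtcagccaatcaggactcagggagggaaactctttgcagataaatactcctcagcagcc
Cxcl10 holds NF-kappaB-like matches 159 and 104 bases before the start, an ISRE-like match 213 bases before it and an AP-1-like match 74 bases before it. Cxcl9 holds an NF-kappaB-like match 154 bases before the start, an ISRE-like match 175 bases before it and a TATA match 195 bases before it. The AP-1-like letters, held by 6.75% of all windows, are in the Cxcl10 window and not in that of Cxcl9. The TATA letters, held by 12.37% of all windows, are in the Cxcl9 window and not in that of Cxcl10. Whether these matches bear on the levels of the pair was not tested.

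Of the constitutive CXC ligands, Cxcl14 was higher in tail and Cxcl12 did not pass. Cxcl14 (BRAK), a chemokine of skin and other epithelia, read 2.87 and 3.75 in heart, 5.56 and 5.08 in tail, 3.51 on heart 2 and 3.53 on tail 1. Tail 2 and 3 stood above the other 4 arrays. The difference was -2.01 (SE 0.36, adjusted p = 0.0316), or 4.02-fold higher in tail. Both arrays left out lay with heart 1 and 3, and the call was lost without heart 1 (adjusted p = 0.0509), without tail 2 (0.119), without tail 3 (0.0533) and without a filter (0.169). By label the difference was -1.35 (SE 0.60, adjusted p = 0.714). Its promoter (chr13:56296552-56296801, minus strand) is shown with an ISRE-like match 172 bases before the start in capitals.
Cxcl14: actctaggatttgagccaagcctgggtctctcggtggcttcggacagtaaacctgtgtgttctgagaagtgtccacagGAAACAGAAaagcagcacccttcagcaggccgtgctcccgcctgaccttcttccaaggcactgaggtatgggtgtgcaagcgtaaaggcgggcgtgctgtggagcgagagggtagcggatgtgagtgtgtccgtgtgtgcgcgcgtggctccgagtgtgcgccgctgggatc

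Cxcl12 (SDF-1), the stromal ligand of Cxcr4, was well above background on every array. It read 5.08 and 5.68 in heart, 5.82 and 5.80 in tail, 3.26 on heart 2 and 5.90 on tail 1. Both tail arrays were slightly above both heart arrays, by a difference of -0.43 (95% interval -1.08 to 0.23, adjusted p = 0.324). The other Cxcl12 probe, matched to a transcript variant of its own, gave -0.86 (SE 0.23, adjusted p = 0.0842 over all probes). When 1 heart array was left out that other probe stood for the gene, with a difference of -1.11 (adjusted p = 0.0386) without heart 3 and -0.60 (adjusted p = 0.0749) without heart 1. Cxcl13, the B cell attractant of lymphoid follicles, was well above background on heart 2 only.

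The membrane-bound ligands Cxcl16 and Cx3cl1 are made with a stalk and shed from the cell surface. Cxcl16, the Cxcr6 ligand, rose in heart and Cx3cl1, the Cx3cr1 ligand, did not pass. Cxcl16 read 0.82 and 1.59 in heart, -0.50 and -0.81 in tail, -1.77 on heart 2 and 1.41 on tail 1. The difference was 1.86 (SE 0.31, adjusted p = 0.0249), or 3.63-fold. Its call was lost without tail 2 (adjusted p = 0.068), without tail 3 (0.0973) and without a filter (0.149). Cx3cl1 read 2.97 and 3.45 in heart, 2.99 and 2.86 in tail, 1.17 on heart 2 and 3.26 on tail 1. The groups overlapped, and the difference was 0.29 (95% interval -0.29 to 0.86, adjusted p = 0.438).

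Of the 29 ligands with a probe, 8 did not reach the filter in either group of the 4 arrays and were not tested there. Beside Ccl24, Cxcl2, Cxcl15, Ccl22 and Cxcl13 they were Ccl1, a Ccr8 ligand, Ccl20, the Ccr6 ligand, and Ccl28, a mucosal ligand of Ccr10. Ccl1, Ccl20, Ccl22, Ccl28 and Cxcl13 were well above background on heart 2 only, where 99.3% of all spots were. Without a filter, with all 29 ligands in, 3 passed (against 1.93% of all features), Ccl6 and Cxcl5 higher in heart and Ccl24 higher in tail.

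The count of called ligands moved with the arrays compared. It was 5 without tail 2, 6 without tail 3, 12 without heart 3 and 14 without heart 1. The share of all features called moved too, at 8.98%, 7.14%, 14.1% and 18.6% in that order. Ccl6, Ccl9, Ccl17, Ccl19 and Cxcl5 kept their calls when any 1 of the 4 arrays was left out.

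Few receptors of these ligands were measured. Of 18 chemokine receptors looked up on the array, 5 were tested on the 4 arrays, and 2 were higher in heart, 1 was lower and 2 did not pass. Over all features, 7.75% were higher in heart and 6.63% lower. Cx3cr1, the receptor of Cx3cl1 on monocytes and macrophages, read 0.38 and 1.93 in heart and -1.98 and -2.80 in tail (difference 3.54, SE 0.60, adjusted p = 0.0265), while Cx3cl1 did not pass. Cxcr4, the Cxcl12 receptor, was not well above background in tail, and heart was at least 2.81-fold higher (adjusted p = 0.00356). Ccr7, the Ccl19 receptor, was well above background on both tail arrays and on 1 of the 2 heart arrays, with -3.82 and -3.75 in heart and -1.36 and -1.29 in tail (difference -2.46, SE 0.14, adjusted p = 0.00172). Cxcr4 passed the filter only through heart and Ccr7 only through tail, so the filter favoured these directions. The Ccr7 spot was an outlier on heart 2, which has no value for it. The authors' deposited table lists Cx3cr1 and Ccr7 with log2 folds of 4.52 and -1.99. Cxcr6 (difference -2.06, adjusted p = 0.117) and Ccr8 (0.63, adjusted p = 0.156) did not pass.

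**Figure D4:**
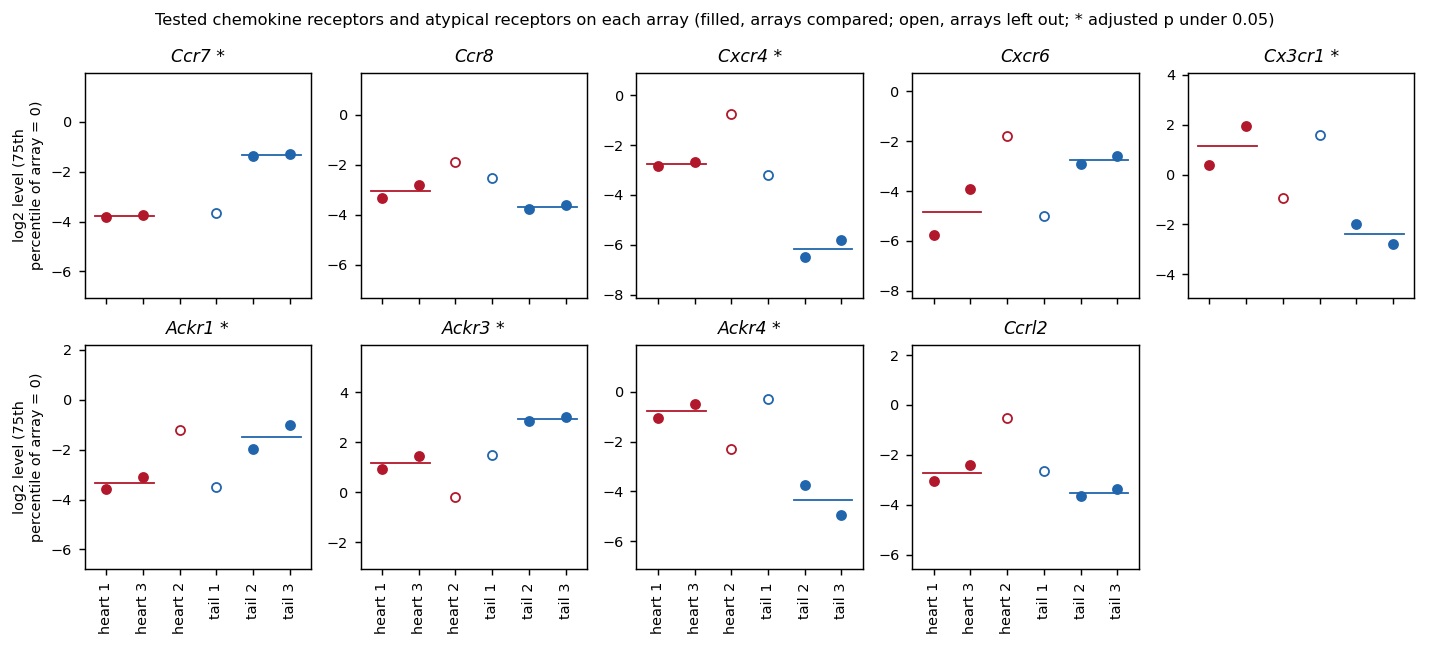
Log2 level (75th percentile of the array = 0) on each array of 5 tested chemokine receptors and the 4 tested atypical receptors; red is heart, blue is tail, filled points are the arrays compared, open points are those left out, lines are means of 2 arrays and an asterisk marks an adjusted p under 0.05. Cxcr4, Cx3cr1 and Ackr4 are higher in heart 1 and 3, and Ccr7, Ackr1 and Ackr3 are higher in tail 2 and 3.

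The atypical receptors, which bind chemokines without G-protein signalling and remove or present them, went both ways. Of 4 tested, 1 was higher and 2 were lower, beside 14.4% of all features called in either direction. Ackr4, which takes up Ccl19 and Ccl25, was higher in heart (difference 3.57, SE 0.46, adjusted p = 0.0124, and it passed the filter only through heart). Ackr3, which takes up Cxcl12, was lower (difference -1.75, SE 0.23, adjusted p = 0.0138), and so was Ackr1, which binds many inflammatory chemokines (-1.83, SE 0.39, adjusted p = 0.0474). Of 10 further chemokine ligands outside the list, 3 were tested. Pf4, a CXC ligand of platelets and macrophages, was 19.7-fold higher in heart (difference 4.30, adjusted p = 0.00214). Ppbp, which lies next to Cxcl5 in the gene order, was not well above background in heart, and tail was at least 8.89-fold above it (adjusted p = 0.00325), a direction fixed by the filter, which Ppbp passed only through tail.

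Some genes upstream of inducible chemokines changed, beside the 14.4% of all features that did. Of 14 tested NF-kappaB pathway genes 3 were higher in heart, Nfkbiz (2.17, adjusted p = 0.00581, passing the filter only through heart), Bcl3 (1.36, adjusted p = 0.00845) and Birc3 (0.88, adjusted p = 0.0417), and Ikbkg was lower (-0.93, adjusted p = 0.0282). The list's median difference was 0.30. Of 14 tested inflammatory cytokines and receptors 4 were higher and 2 lower, with a median of 0.10. Il6 was 11.1-fold higher in heart (adjusted p = 0.0114), and the receptor genes Il6ra (2.68, adjusted p = 0.00173) and Il1r1 (1.21, adjusted p = 0.0113) were higher too. Il11 (-1.70, adjusted p = 0.00817) was lower. Of 20 tested interferon-response genes 4 were higher and 0 lower, with a median of 0.51. They were Irf8 (2.91, adjusted p = 0.00935), Rsad2 (2.52, adjusted p = 0.00665), Ifit3 (1.16, adjusted p = 0.0499) and Ifit2 (1.02, adjusted p = 0.0162). None of these genes passed by label.

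Markers of leukocytes and endothelial cells, which also make chemokines, were mostly higher in heart on the 4 arrays. Over all features on the 4 arrays, 7.75% were higher in heart and 6.63% lower. Of 22 leukocyte and macrophage markers on the array, 19 were tested on the 4 arrays and 13 were higher in heart, 0 lower, with a median difference of 2.14. Ms4a7 (32.8-fold, adjusted p = 0.00143), Aif1 (23.7-fold, adjusted p = 0.00829), Cd52 (9.57-fold, adjusted p = 0.0202) and C1qc (7.35-fold, adjusted p = 0.0185) led them. The defining marker Ptprc (CD45) read -1.80 and -1.59 in heart and -3.63 and -4.04 in tail (1 of the 2 above background). Other macrophage genes did not pass, with Csf1r at 4.53 and 5.43 in heart and 5.13 and 4.46 in tail, and Itgam at 3.97 and 4.87 in heart and 5.15 and 4.96 in tail. The list's summed level, with each array's 75th percentile as 1, was 124 and 216 on heart 1 and 3, 103 and 74.4 on tail 2 and 3, 171 on tail 1 and 30.2 on heart 2. Of the endothelial markers 13 were tested and 10 were higher in heart, 0 lower, among them Cldn5 (at least 9.95-fold) and Robo4 (at least 16.2-fold). Of those 10, 4 passed the filter only through heart, as did 2 of the 13 leukocyte markers, so these counts partly restate the filter. The endothelial level was 49.9 and 62.3 on heart 1 and 3, 45.2 and 36.5 on tail 2 and 3, 52.2 on tail 1 and 15.3 on heart 2. Ccl6, Ccl9, Ccl12, Ccl17, Cxcl16, Cx3cr1 and Pf4, all higher in heart, are genes that leukocytes are known to express. So are Ccl3, Ccl4 and Ccl5, grouped above as macrophage-type ligands, which did not pass. The part of these cells in the chemokine differences was not tested.

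**Figure D5:**
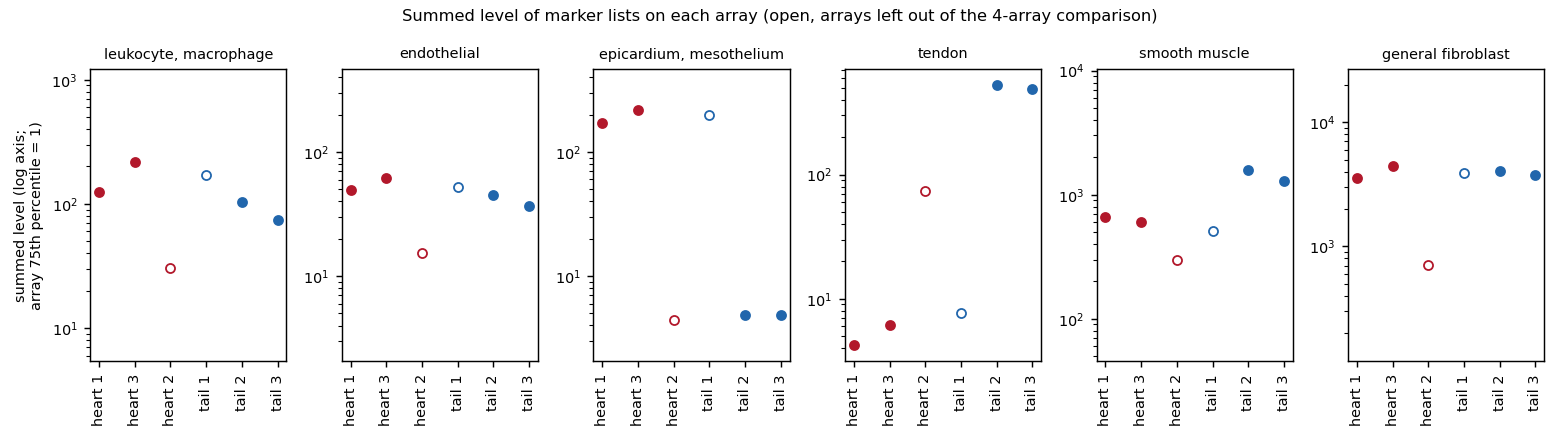
Summed level of 6 lists of cell type markers on each array (log axis, the array's 75th percentile as 1, each panel on its own range position); red is heart, blue is tail, and open points are the arrays left out of the 4-array comparison. The leukocyte sum is 124 and 216 on heart 1 and 3 and 103 and 74.4 on tail 2 and 3, and the general fibroblast sum is 3552 and 4466 on heart 1 and 3 and 4041 and 3726 on tail 2 and 3.

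Other cells of the 2 tissues differed as well, and their part in the chemokine levels was not tested either. The summed level of epicardium and mesothelium markers was 172 and 217 on heart 1 and 3 and 4.83 and 4.85 on tail 2 and 3, with tail 1 at 198 and heart 2 at 4.38. Tendon markers summed to 4.20 and 6.11 on heart 1 and 3 and to 526 and 486 on tail 2 and 3, with tail 1 at 7.73 and heart 2 at 73.6. Keratinocyte markers summed to 7.07 and 7.36 on heart 1 and 3 and to 7.05 and 6.25 on tail 2 and 3. Of the 8 on the array only 3 reached the filter and were tested, with 0 called. General fibroblast markers were well above background on all 6 arrays, with 5 of 15 higher and 2 lower in heart. Over all features on the 4 arrays, 7.75% were higher in heart and 6.63% lower. Of the tested members of the remaining lists, 4 of 7 epicardium and mesothelium markers were higher in heart and 1 lower, all 6 tendon markers were lower, and 5 of 8 smooth muscle markers were lower and 0 higher. Among cardiomyocyte markers 1 of 8 was higher and 4 lower, among skeletal muscle markers 3 of 6 were lower and 0 higher, among Schwann cell markers 1 of 4 was higher and 1 lower, and among adipocyte markers 3 of 5 were lower and 0 higher. Called members that passed the filter only through the higher group were 4 in the epicardium list, 3 in the tendon list, 1 in the smooth muscle list and 2 each in the cardiomyocyte, skeletal muscle and adipocyte lists.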

How the data were processed

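RNA of 6 cultures was read on 1-colour Agilent arrays, all on 1 slide. Per the file headers, the deposited spot intensities came from Agilent Feature Extraction 11.0.1.1, which subtracted background without scaling between arrays, and the deposited flags of other kinds (0 or 1) mark spots well above background or outliers. The authors' table gives deposited log2 fold changes and absolute fold ratios, heart over tail, for 433 probes. Its normalization and selection are not given in the sources used here.

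Processed signals were taken to log2 and the array's 75th percentile over its non-control probes subtracted, after leaving out outlier spots and averaging the spots of a probe. Of 55681 probes, 27235 were named by RefSeq accession, 27 through the deposited table and 28419 had no symbol. A probe was tested if every array of 1 group or both showed it well above background, and the tested probe with the highest mean stood for its gene. Groups were compared with limma 3.58.1 (lmFit, eBayes, two-sided, Benjamini-Hochberg over all features, threshold 0.05) in R 4.3.3, after tests on simulated data. Python 3.11.15, pandas 2.3.3 and matplotlib 3.10.9 made tables and plots. For an "at least" fold, each dim array counted with the probe's signal or the dimmest signal that passed as well above background, whichever was greater. Precision is limited by the number of arrays.

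The members and lists were chosen with earlier results of these data known. Every ligand with a probe is named, receptors of ligands may be named, and of each other list up to 4 called genes with the largest 4-array differences. Ptprc, Csf1r, Itgam and the promoters shown were picked after values were seen. The NF-kappaB-like and ISRE-like motifs were shortened by their last letter after the matches of the longer forms, which are rarer, had been seen. Of the receptor list, 1 gene is not reported here. Alternatives were quantile, median and normexp processing (normexp on the median spot signals that the files hold), no filter or one on all arrays, the mean of a gene's probes, trend and robust eBayes, the slide row or replicate number as a block, and leaving out arrays.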

Additional observations from a re-analysis of the deposited data

How the results depend on the processing

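By label, 0 features and 0 ligands passed under every other processing except these. Blocking on the replicate number (replicate block) gave 44 features and 0 ligands, leaving out heart 2 and tail 1 together gave 2957 and 11, and leaving out 1 array gave 0 to 214 features (214 without heart 1) and 0 ligands. Deviations of same-numbered arrays from their group means correlated at r = 0.19, 0.26 and -0.32 across probes. Those of differently numbered arrays ran from -0.29 to 0.33. The group means include heart 2 and tail 1, so this check cannot decide if the numbers pair the cultures. On 4 arrays no paired analysis was possible because only replicate number 3 is in both groups. There, no filter left 716 features and 3 ligands, with more features tested, and leaving out 1 array gave 1569 to 3951 features (1902 without tail 2, 1569 without tail 3) and 5 to 14 ligands. Without 1 array another probe stood for Cxcl9 or Cxcl12. Leaving 1 array out leaves a lone array assumed to vary like the other group. The other settings gave 2160 to 3260 features and 9 to 13 ligands. Differences turned sign by label as follows. Quantile normalization gave -0.46 for Ccl12, 0.041 for Ccl7 and -0.85 for Cxcl16. Median scaling, which moved the median of all features from -0.40 to -1.33, gave -0.24 for Ccl12, -0.019 for Ccl25, -0.81 for Ccl9, -0.75 for Cxcl16 and -0.60 for Cxcl5. Without heart 2 and tail 1 together, Ccl3 was 0.16, Ccl4 0.31, Ccl8 1.71, Cx3cl1 0.29 and Cxcl10 0.57. Leaving out 1 array at a time ranged from -0.40 to 2.00 for Ccl12, -1.34 to 0.079 for Ccl3, -1.99 to 0.13 for Ccl4, -1.14 to 0.0056 for Ccl7, -0.88 to 0.92 for Ccl8, -0.97 to 1.82 for Ccl9, -0.97 to 0.18 for Cx3cl1, -1.89 to 0.23 for Cxcl10, -0.51 to 1.17 for Cxcl16 and -0.44 to 1.86 for Cxcl5. On 4 arrays it ranged from -0.18 to 0.51 for Ccl3, -0.31 to 0.93 for Ccl4, -1.35 to 0.12 for Ccl5 and -0.65 to 0.11 for Ccl7. The cause of these turns was not tested. Signal over background limits Cxcl9, Ccl11 and Ccl17, which were not well above it on every array compared.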
